A study of Drosophila melanogaster with 2 samples.

Results

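In chromatin immunoprecipitation of CG17568-GFP from Drosophila melanogaster embryos, 235 of 3396 peaks of the irreproducible discovery rate (IDR) list had their summit between the divergent promoters of a pair of protein-coding genes. A summit is the base of highest signal in a peak. A summit was taken when it lay within 500 bp of a coding transcription start site (TSS) and when the nearest minus-strand TSS to its left and the nearest plus-strand TSS to its right belonged to different genes at most 1000 bp apart. The distance between these TSSs is called the gap. The 235 summits made up 6.92% of the IDR list (95% Wilson interval 6.11 to 7.82%) and lay between 228 gene pairs with 454 distinct genes. Of the other IDR summits, 683 lay upstream of a coding TSS within 500 bp with no such partner, here called single upstream promoters. A further 405 lay downstream of a coding TSS within 500 bp, and 2073 lay farther away.

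The study had 1 group, with 2 biological replicates of mixed-sex whole embryos aged 0 to 20 h from the strain CG17568-GFP, a stable transgenic line with GFP fused to the C-terminus of CG17568. The transgene is carried by every sample, whole embryos mix all cell types and a wide range of ages, and no sample without the tag or from another time was analysed here. Chromatin was sonicated to fragments of 200 to 800 bp. The labels name the assay as transcription factor ChIP-seq with CG17568 as the target, while their free text calls both libraries input controls. The values below describe binding only if the assay label is the right one.

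CG17568 is a predicted zinc finger protein. In a divergent promoter, a pair of genes on opposite strands start near each other and are transcribed away from each other, so that a short stretch of DNA serves as the upstream region of both. Such pairs are common in the compact fly genome and often hold genes that most cells use.

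Sequences at the highest summits are shown first, because they are the DNA under the strongest signal in such gaps. They are the 101 bases centred on the summit for the 4 highest summits with no annotated exon in that window, on the plus strand of the Release 6 (dm6) genome from RefSeq, and capitals mark any of the 11 motifs searched (spelled out with the motif results). The Sf3a1/Irc window held CGATA, bound by the insulator protein BEAF-32. The mRpS23/CenG1A window held none of the 11. In the CG13390/CG17294 window the capitals mark TATAAA, the letters searched for the TATA box. In the CG5611/Mtl window they mark CAGGTA, the letters searched for Zelda, an activator of the early embryonic genome. These are matches of letters only.
Sf3a1/Irc, chr3R:17002382-17002482: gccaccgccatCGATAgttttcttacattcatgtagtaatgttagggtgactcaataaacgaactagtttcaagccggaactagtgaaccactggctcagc
mRpS23/CenG1A, chr2L:13835422-13835522: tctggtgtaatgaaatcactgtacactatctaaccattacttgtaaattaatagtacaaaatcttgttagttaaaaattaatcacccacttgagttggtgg
CG13390/CG17294, chr2L:8376850-8376950: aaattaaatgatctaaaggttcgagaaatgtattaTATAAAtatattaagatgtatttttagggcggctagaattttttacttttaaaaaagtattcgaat
CG5611/Mtl, chr3R:27636130-27636230: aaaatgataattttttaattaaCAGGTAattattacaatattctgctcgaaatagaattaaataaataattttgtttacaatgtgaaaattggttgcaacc

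The whole gap between Tfb4 and Vps29, without the start sites themselves, is shown because it was the narrowest gap among the 20 highest summits. Tfb4 encodes a subunit of the general transcription factor TFIIH and Vps29 a subunit of the retromer, which sorts proteins out of endosomes. The summit lay 41 bp from the Tfb4 TSS and 48 bp from the Vps29 TSS, and capitals mark CGATA.
Tfb4/Vps29, chr2L:1150678-1150765: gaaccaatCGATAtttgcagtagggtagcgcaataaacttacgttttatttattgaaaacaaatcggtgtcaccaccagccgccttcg

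The signal value is the score that the deposited lists give each peak, a relative number without a physical unit, and it allows peaks to be ranked within a list. Among the 20 highest of the 235 summits were pairs with genes of translation, splicing, transcription and protein folding, beside pairs with other genes. These 20 were not compared with all divergent pairs by function, and the gene named was not always the nearer of its pair. RpS15/CG4927, with a small ribosomal subunit gene, held the highest summit of the whole IDR list, with a signal value of 3472 in the pooled list and rank 1 in both replicates. This summit lay 577 bp from the RpS15 TSS and 275 bp from the CG4927 TSS. Sf3a1/Irc came next, with 2297, rank 3 in replicate 1 and rank 2 in replicate 2; Sf3a1 is a splicing factor subunit and Irc a catalase. These 2 summits also had the highest and the second highest signal of all 3396 IDR peaks.

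Ugalt/eIF2Bbeta, which pairs a sugar-nucleotide transporter with a subunit of the exchange factor for initiation factor eIF2, had 1995 and ranks 5 and 6 in replicates 1 and 2. Its summit lay 35 bp from the Ugalt TSS and 684 bp from the eIF2Bbeta TSS. mRpS23/CenG1A, with a mitochondrial ribosomal protein gene, had 1737 and rank 9 in each replicate, at 400 bp from the mRpS23 TSS and 92 bp from the CenG1A TSS. PNPase/Gprk2, with a mitochondrial RNA-degrading enzyme and a kinase of G protein-coupled receptors, had 1692 and ranks 8 and 11. Thus the 5 highest summits stood near the top of both replicate lists. mRpL41/CG8079 followed with 1438 and ranks 16 and 27, and CG11309/CG7632 with 1392 and ranks 28 and 16.

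Chro/Ssl1 had a signal value of 1305 with ranks 29 and 24. Chro encodes Chromator, a chromatin protein of polytene interbands, and Ssl1 is another TFIIH subunit. CG14965/Hsp83, with the fly Hsp90 chaperone, had 1186 with ranks 49 and 29. Tfb4/Vps29 had 1061 with ranks 36 and 70. The remaining gene pairs of the 20 highest were Pdrg1/Pal1, Stt3A/bves, CG13390/CG17294, CG6550/Mtap, CG5611/Mtl, CG7841/Z600, Acbp1/Piezo, RpS27/Nup37, CG8372/CG8360 and mRpL23/CG9004, with signal values between 873 and 1111. Stt3A is the catalytic subunit of the oligosaccharyltransferase, Mtl a Rac-like GTPase and Piezo a mechanically gated ion channel. All 20 ranked 89 or better in replicate 1 and 81 or better in replicate 2.

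Summits in divergent gaps were denser at the top of the IDR list than further down. They made up 7 of the 25 highest IDR peaks (28.0%, interval 14.3 to 47.6%), 26 of the 100 highest (26.0%) and 71 of the 500 highest (14.2%). In steps of 340 ranks their share was 14.1% in ranks 1 to 340, 12.4% in ranks 341 to 680 and 7.94% in ranks 681 to 1020. It lay between 3.53% and 6.76% in every later step. The median signal value was 248 for the 235 summits, 215 for the 683 IDR summits at single upstream promoters and 188 for the whole IDR list.

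The highest 25% of the IDR list by signal held 108 of the 235 summits in divergent gaps (46.0%, interval 39.7 to 52.3%) and 242 of the 683 at single upstream promoters (35.4%, interval 31.9 to 39.1%). By a two-sided Fisher's exact test the odds ratio of 1.55 had p = 0.00502, and 0.0100 after Benjamini-Hochberg adjustment over the 4 tests between summit classes. By the same exact test this call was lost when only the outermost TSS of each gene was used (odds ratio 1.51, adjusted p = 0.0661), in the upper 1698 peaks of the IDR list (1.17, adjusted p = 0.435) and when the highest peaks of replicate 2 alone replaced the IDR list (1.27, adjusted p = 0.118). Summits were counted as units in this and the tests below, so each p covers counting error only and not the spread between embryo collections.

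Relaxed peaks, a permissive list of 30000 per replicate and for the pooled reads, gave a background for the IDR list. The IDR list consisted of the 3396 highest pooled peaks, so a comparison of IDR with weaker summits is one of strong with weak signal. A weaker summit is a pooled relaxed summit with no IDR summit within 500 bp. Over all positions, 11.6% of 29258 summits were in the IDR list. In divergent gaps it was 235 of 589 (39.9%, interval 36.0 to 43.9%), against 683 of 2786 at single upstream promoters (24.5%, interval 23.0 to 26.1%). This gave an odds ratio of 2.04 (adjusted p = 5.9e-13, Fisher's exact test), which lay between 1.68 and 2.49 under the alternatives tried. Among summits at most 150 bp from a coding TSS, a restriction chosen after seeing the data, it was 191 of 446 (42.8%) in divergent gaps against 255 of 1062 (24.0%) at single upstream promoters.

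Among relaxed summits, those in gaps of at most 400 bp were more often in the IDR list. In gaps of at most 200 bp, 15 of 32 summits were in the IDR list (46.9%, interval 30.9 to 63.6%, which overlapped that of every other class). In gaps over 200 to 400 bp it was 107 of 210 (51.0%, interval 44.2 to 57.6%). The share was 33.6% in gaps over 400 to 600 bp, 32.7% over 600 to 800 bp and 31.1% over 800 to 1000 bp (interval 23.1 to 40.5%). The intervals of the 200 to 400 bp class and of each wider class did not overlap. The trend was not tested. Counted over all annotated divergent pairs, the share with an IDR summit did not fall with width. It was lowest in the class of at most 200 bp (6.23%) and highest over 800 to 1000 bp (10.9%), with overlapping intervals. Pairs with a relaxed but no IDR summit went from 5.98% to 21.8% between the same classes. The shares of relaxed summits therefore do not show that narrow gaps held an IDR summit more often.

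**Figure D1:**
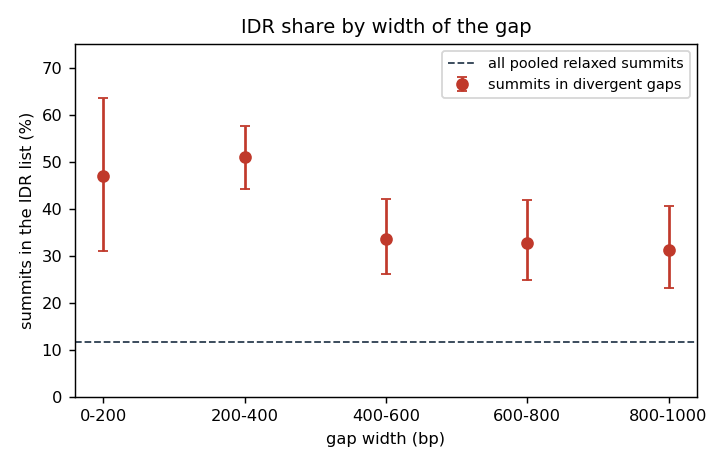
Share of pooled relaxed summits that were in the IDR list, in percent, by width of the divergent gap in bp (points, with 95% Wilson intervals) and over all positions (dashed line, 11.6%). All 5 width classes lie above the line, with 51.0% in gaps over 200 to 400 bp and 31.1% in gaps over 800 to 1000 bp.

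The annotation held 2667 gene pairs with a divergent gap of at most 1000 bp. Of these, 228 pairs (8.55%) had an IDR summit in the gap and 304 more (11.4%) had a pooled relaxed summit but no IDR summit. In these counts each summit was assigned to the genes of the nearest minus-strand TSS to its left and the nearest plus-strand TSS to its right. These need not be the closest start sites of the 2 genes. At a start site shared by several genes, a single gene was counted. Most divergent pairs were therefore assigned no summit of these lists.

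The gaps with an IDR summit were 53 to 995 bp wide. Their median width was 382 bp, against 518 bp for the gaps of the 354 weaker summits. The narrowest were those of Taf12/Ho (53 bp), Ns1/mRpS11 (57 bp) and eIF3h/senju (63 bp). Taf12 is a subunit of the general factor TFIID and Ho is heme oxygenase, and eIF3h belongs to the initiation factor eIF3. Their signal values were 131, 133 and 139, among the lowest 25% of the IDR list. Taf12/Ho ranked 2744 in replicate 2 and eIF3h/senju 1512, and neither had a summit within 100 bp in replicate 1. Ns1/mRpS11 ranked 3655 in replicate 1 and 2870 in replicate 2.

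In the widest gap, 995 bp between bsk, the fly Jun kinase, and CG31717, were 2 IDR summits. One lay 100 bp from the bsk TSS with a signal value of 232 and ranks 957 and 1693 in replicates 1 and 2. The other lay 314 bp from that TSS with 131 and ranks 8492 and 2433. Pax/Lectin-galC1 had a gap of 977 bp and a summit of 360.1, with ranks 436 and 641. Pax is paxillin, an adaptor at integrin adhesions.

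A distance near 100 bp from a TSS was the commonest position. The nearer TSS of the pair lay at a median of 109 bp from the summit, with the middle 50% of summits between 75.5 and 148 bp, and the farther at a median of 270.0 bp. In 119 summits the nearer TSS was 75 to 150 bp away (50.6%, interval 44.3 to 57.0%), against 129 of 354 weaker summits in divergent gaps (36.4%, interval 31.6 to 41.6%). Only 14 summits lay within 25 bp of a TSS of the pair (5.96%, interval 3.58 to 9.75%), against 47 weaker summits (13.3%, interval 10.1 to 17.2%). These distance classes were chosen after the values were seen and were not tested. The median distance to the nearer TSS was 113 bp for the weaker summits, close to the 109 bp of the IDR summits. In gaps of at most 400 bp it was 94.0 bp for IDR and 89.5 bp for weaker summits. In wider gaps it was 145 and 142 bp.

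IDR summits at single upstream promoters lay farther out. Their nearest coding TSS was at a median of 189 bp, against 103 bp for the summits in divergent gaps. A divergent gap has a start site at each end, so the width of the gap limits the distance to the nearest TSS there. Both TSSs of the pair were within 500 bp in 181 of the 235 summits (77.0%). The plus-strand TSS was nearer in 121 summits and the minus-strand TSS in 113, so neither side was favoured beyond counting error.

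**Figure D2:**
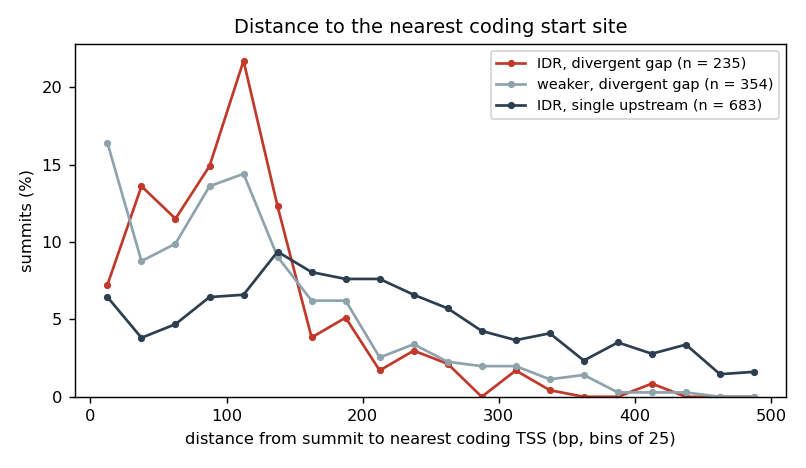
Percent of summits (vertical axis) by distance to the nearest coding TSS in bins of 25 bp (horizontal axis) for IDR summits in divergent gaps, weaker summits in divergent gaps and IDR summits at single upstream promoters. The IDR summits in divergent gaps peak in the bin of 100 to 125 bp with 21.7%, where weaker summits reach 14.4% and single upstream summits 6.59%.

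In the middle 50% of the gap lay 139 of 235 IDR summits (59.1%, interval 52.8 to 65.2%) and 189 of 354 weaker summits (53.4%, interval 48.2 to 58.5%). The difference did not pass Fisher's exact test (odds ratio 1.26, adjusted p = 0.176). By the same exact test it passed with the highest peaks of replicate 1 alone (odds ratio 1.71, adjusted p = 0.00238) and among summits within 150 bp of a TSS (1.57, adjusted p = 0.0213), but not with replicate 2 alone (1.32, adjusted p = 0.118). In both sets the share was higher in narrow gaps. In gaps of at most 400 bp, 73.8% of IDR and 69.2% of weaker summits were in the middle part, and in wider gaps 43.4% of IDR and 45.3% of weaker summits.

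**Figure D3:**
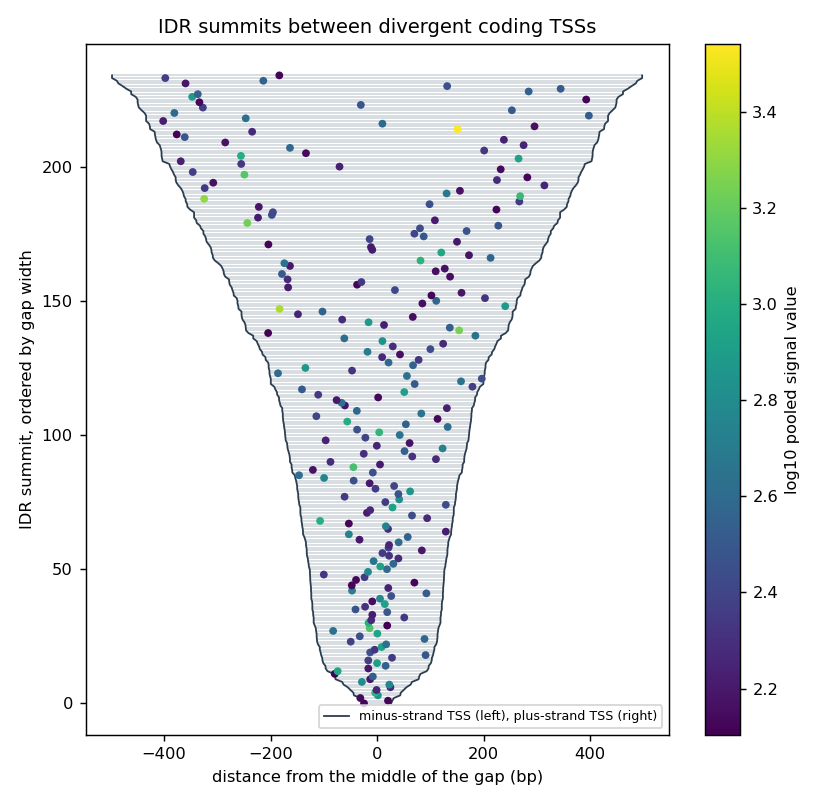
Each of the 235 IDR summits in its gap, ordered by gap width from the narrowest at the bottom, with the distance from the middle of the gap in bp on the horizontal axis; dark lines mark the start sites, grey lines the gaps and the colour the log10 pooled signal value. Summits cluster around the middle of narrow gaps and spread towards both sides in gaps over 400 bp.

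In 7 gene pairs there were 2 IDR summits. CG6550/Mtap, where Mtap acts in methionine salvage, had signal values of 1011 and 186 in a gap of 284 bp, at 35 bp from the CG6550 TSS and 48 bp from the Mtap TSS. Alg1/tinc had 731 and 356 in a gap of 407 bp. The 2 Alg1/tinc summits lay in the same peak interval, and the intervals of the 2 CG6550/Mtap summits overlapped. GstE10/GstE1, a pair of glutathione S-transferase genes, had 424 and 328 in a gap of 867 bp, at 187 bp from the GstE10 TSS and 36 bp from the GstE1 TSS. Ac78C/chb had 348 and 346 in a gap of 923 bp. In each of these 4 pairs one summit lay closer to one gene and the other to its partner. Elp6/Dic1 had 345 and 165 in separate gaps of 350 and 622 bp between alternative start sites of the same genes. Another coding TSS lay between the pair in 58 of the 235 summits, and 15 summits had a start site shared by several genes, where the gene named is one of those that share it.

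The peak interval covered both start sites in 49 of 235 peaks (20.9%) and neither in 79 (33.6%). The median peak width was 328 bp in divergent gaps and 396 bp at single upstream promoters. Many peaks shared the width of 396 bp. It was the upper quartile in both sets, and both quartiles and the median of the weaker peaks in divergent gaps. Whether this width was set in peak calling is not given in the sources used here. Neither the widths nor the counts of covered start sites are therefore read as the extent of binding. An annotated exon of any transcript covered 50 of the summits (21.3%).

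The replicate lists held most of these summits. A replicate summit within 100 bp was found in both relaxed lists for 220 of 235 (93.6%), against 630 of 683 at single upstream promoters (92.2%). None was missing from both lists, 10 were missing only from replicate 1 and 5 only from replicate 2. The highest summit missing from a list was Fur1/Vps33B, with a pooled signal value of 494 and rank 223 in replicate 2. Next came CG7556/CG7453, with 174 and rank 1661 in replicate 2, and Agpat2/prg, with 167 and rank 2290 in replicate 1. eIF5B/CG46463 had 150.3 and rank 2573 in replicate 2, and Spn27A/CG34310 149 and rank 1644 in replicate 2.

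For the 220 summits found in both, the ranks of replicates 1 and 2 had a Spearman rho of 0.878, against 0.808 for the 630 at single upstream promoters and 0.698 for 3209 of the whole IDR list. These are descriptions across summits of the same 2 libraries, with no test. Ranks differed by over 4-fold in 5 of the 220 (2.27%), against 2.86% at single upstream promoters and 3.21% over the whole IDR list. Of the 220, rank was better in replicate 1 for 102 summits and better in replicate 2 for 115.

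Of the 235 summits, 183 had a matching summit among the 3396 highest peaks of both replicates (77.9%, interval 72.1 to 82.7%). At single upstream promoters it was 474 of 683 (69.4%, interval 65.8 to 72.7%). The difference passed the exact test with an odds ratio of 1.55 (p = 0.0149, adjusted p = 0.0199). The IDR list was made from these same 2 replicates, and summits in divergent gaps stood higher in it. This comparison is therefore not separate from the one by signal, and no conclusion on reproducibility is drawn from it. The call depended on the settings: by the same exact test the odds ratio was 1.28 with a match within 50 bp (adjusted p = 0.161), 1.40 within 200 bp (adjusted p = 0.102) and 1.13 with gaps up to 2000 bp (adjusted p = 0.459). It was 1.54 with the outermost TSS of each gene (exact test, adjusted p = 0.0661) and 3.24 in the upper 1698 peaks of the IDR list (adjusted p = 0.0809). With the highest peaks of replicate 1 alone it was 1.20 (exact test, adjusted p = 0.283), and of replicate 2 alone 1.01 (adjusted p = 1.00). Among summits within 150 bp of a TSS it was 2.27 (exact test, adjusted p = 4.2e-04).

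**Figure D4:**
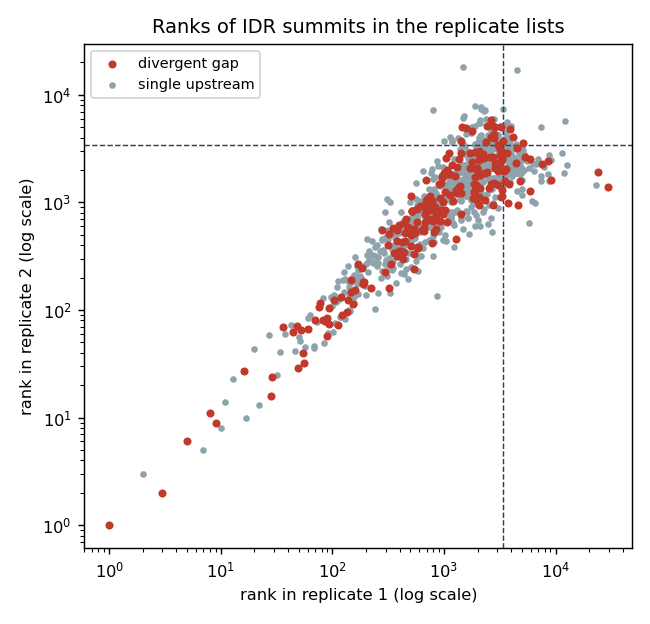
Rank in replicate 1 (horizontal, log scale) against rank in replicate 2 (vertical, log scale) for IDR summits in divergent gaps (220 found in both lists) and at single upstream promoters (630 found in both lists); dashed lines mark rank 3396. The summit of RpS15/CG4927 is at rank 1 in both, and ranks scatter more widely towards the dashed lines.

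Around the signal threshold of the IDR list the summits in divergent gaps passed without a step. Just above it were Abi/twf with a signal value of 128, Polr3F/PyK with 127 and dsd/Tusp with 127. Just below it were qless/mRpL32 with 127, Dmtn/gpp with 127 and CG12974/pzg with 126. Abi/twf had no summit within 100 bp in replicate 2 and Polr3F/PyK none in replicate 1. qless/mRpL32, outside the list, ranked 2893 in replicate 1 and 4273 in replicate 2.

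Peak calls were also counted in each replicate on its own. Among the 3396 highest peaks, divergent gaps held 256 in replicate 1 (7.54%) and 296 in replicate 2 (8.72%). In the rest of each list it was 415 of 26604 (1.56%) in replicate 1 and 473 of 26604 (1.78%) in replicate 2. Both replicates therefore had a larger share among their strong peaks, as did the pooled list, with 6.92% of IDR and 1.37% of weaker summits.

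Motifs of known promoter and insulator factors were searched on both strands within 50 bp of each summit, as exact letters. They were the DNA replication-related element DRE (TATCGATA), the BEAF-32 site (CGATA, which every DRE contains), the core of the M1BP site (GGTCACACT), core promoter motif 7 (CATCNCTA), GAGAG for the GAGA factor, TATAAA for the TATA box, CAGCTG as an E-box, CAGGTA for Zelda, TCAGT for the initiator, the CTCF core (GCGCCNNCT) and an A tract (AAAAAAAA). The same 101-base windows at the middle of all 2518 divergent gaps, taken between the closest start sites of each pair, gave the level in such gaps in general. Of the 11 motifs, 2 differed between IDR summits in divergent gaps and at single upstream promoters (18.2% of the motifs tested), GAGA and DRE. A match of letters is not a measured binding site.

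GAGA, bound by the GAGA factor at many regulated promoters, was less frequent in divergent gaps. It was found at 14 of 235 summits (5.96%, interval 3.58 to 9.75%), against 129 of 683 at single upstream promoters (18.9%, interval 16.1 to 22.0%). With an odds ratio of 0.272 the difference passed Fisher's exact test (adjusted p = 7.2e-06 over 11 motifs), and this call held under each alternative tried. The share was 9.32% at weaker summits in divergent gaps, 7.74% at the middle of all divergent gaps and 16.5% at weaker summits of single upstream promoters. All 3 sets in divergent gaps lay below both sets at single upstream promoters.

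DRE, bound by DREF at promoters of growth and housekeeping genes, was more frequent in divergent gaps. It was found at 9 of 235 summits (3.83%, interval 2.03 to 7.12%), against 4 of 683 at single upstream promoters (0.586%, interval 0.228 to 1.5%). With an odds ratio of 6.76 this difference passed the exact test (adjusted p = 0.00602). All 9 and all 4 lay within 150 bp of a coding TSS, and among summits that close the share was 4.71% of 191 in divergent gaps against 1.57% of 255 at single upstream promoters, which did not pass the exact test (odds ratio 3.10, adjusted p = 0.185). With the highest peaks of replicate 2 alone it did not pass the exact test either (2.04, adjusted p = 0.675). The share was 3.11% at weaker summits in divergent gaps and 4.77% at the middle of all divergent gaps.

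The DRE sites are shown with 11 bases on each side, for the 7 summits with no annotated exon in the stretch and with capitals marking the DRE, plus strand of dm6 from RefSeq. RpS25 and RpL34a are cytosolic ribosomal protein genes, snRNP-U1-C a component of the U1 spliceosomal particle, and SF2 a splicing factor. chic is profilin and eIF4A the RNA helicase of translation initiation.
RpS25/CG4820, chr3R:11216328-11216357: gctcgcctgccTATCGATAgttggtggtgg
RpL34a/Trmt61, chr3R:26059292-26059321: atattaattgcTATCGATAatttcaaaaca
Su(P)/CG4101, chr3L:16612431-16612460: cctaaaaaagtTATCGATAgtttccacctg
snRNP-U1-C/gukh, chr3R:18983672-18983701: gccgctgtgtaTATCGATAtgtttaacagc
SF2/pad, chr3R:16342071-16342100: ttcgttgcttaTATCGATAgctaccctgta
chic/eIF4A, chr2L:5981701-5981730: ggcgatcgatcTATCGATAgtcgctaatgt
dsd/Tusp, chr3R:27607451-27607480: gtcactgtcggTATCGATAagatatctagc

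The signal values of these 7 summits ranged from 518 at RpS25/CG4820 to 127 at dsd/Tusp, so they included no summit of the 20 highest. Of the 9 summits with a DRE, 4 had a cytosolic ribosomal protein gene in the pair.

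The other 9 motifs did not pass. CGATA was found at 47 of 235 summits (20.0%), against 94 of 683 at single upstream promoters (13.8%; odds ratio 1.57, exact test, adjusted p = 0.10), and at 23.9% of the middles of all divergent gaps. It passed the exact test with gaps up to 500 bp (1.92, adjusted p = 0.0192) and within 100 bp of the summit (1.67, adjusted p = 0.00668). TATAAA was found at 68 of 235 summits (28.9%), against 176 of 683 (25.8%) at single upstream promoters and 23.4% of the middles. M1BP was found at 2 summits in divergent gaps, one of them at CG7130/RpLP0. Between IDR and weaker summits in divergent gaps, 0 of 11 motifs differed by Fisher's exact test (0% called), and 0 of the 11 had an unadjusted p under 0.05.

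**Figure D5:**
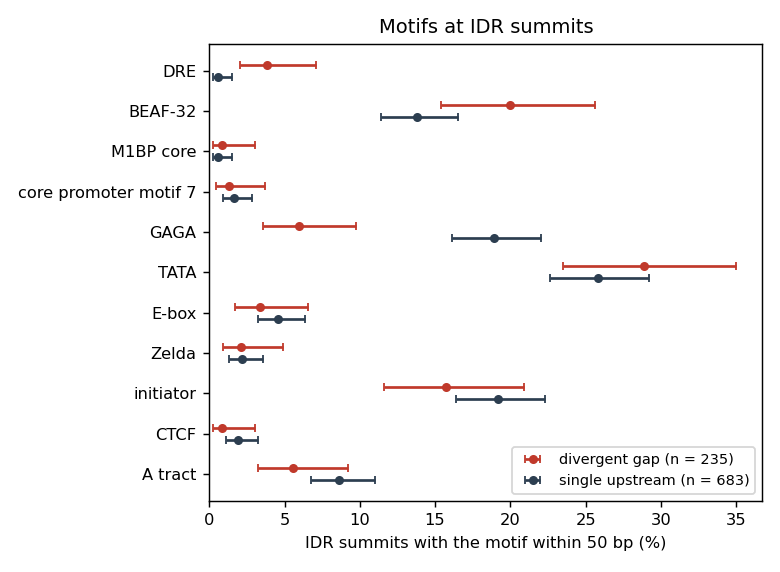
Percent of IDR summits with each of 11 motifs within 50 bp (horizontal axis, points with 95% Wilson intervals), in divergent gaps above and at single upstream promoters below for each motif. GAGA is at 5.96% against 18.9% and DRE at 3.83% against 0.586%, without overlap of the intervals; the other motifs overlap.

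Base composition at these summits was low in G and C. The median GC content within 50 bp was 30.7% in divergent gaps and 32.7% at single upstream promoters, while the flanks, 101 bases centred 300 bp to each side, had 42.6% and 42.1%. Weaker summits in divergent gaps had 32.7% at the centre.

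The 8-base words most concentrated at IDR summits outside divergent gaps were TAGGTAAA, AATATTGA, AGGTAAAT, ATATTTAC and GGTAAATA. Any of these 5 was found within 50 bp at 16 of 235 summits in divergent gaps (6.81%, interval 4.23 to 10.8%) and in 2.13% of their flanks. Outside divergent gaps it was 8.32% of 3161 IDR summits and 2.06% of flanks. At weaker summits in divergent gaps it was 5.37%, at single upstream promoters 4.10% and at the middle of all divergent gaps 3.89%. In both sets most summits held none of the 5 words.

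Ranked on the summits in divergent gaps themselves, the leading word was CTTTTAAA, found at 14 of 235 (5.96%, interval 3.58 to 9.75%) and in 0 of their flanks. As the word was chosen on these summits among 209 words, this is a description. It was found at 2.82% of weaker summits in divergent gaps, 2.93% of summits at single upstream promoters and 2.42% of the middles of all divergent gaps. Next was GCTATCGA, which overlaps the DRE, at 9 of 235 (3.83%) and at 2.58% of the middles. The word is shown at 3 of its highest summits, with 11 bases on each side and capitals marking it on either strand (plus strand of dm6, RefSeq).
Ugalt/eIF2Bbeta, chrX:2703870-2703899: tgcaaacaaaaTTTAAAAGtgcattgtgca
CG15019/TP53INP, chr3L:4406777-4406806: ttgtttaacagTTTAAAAGaattcggctta
CG10467/loj, chr3L:6094844-6094873: gcttattaagcCTTTTAAAtagaacaattt

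Gene pairs were described by 17 lists made from patterns in gene symbols, with counts only. The lists miss genes whose symbols do not follow the pattern, so each count covers the symbols searched and not all genes of a function. Of the 532 pairs to which any pooled relaxed summit was assigned, 228 had an IDR summit (42.9%). Symbols of a list other than CG numbers were in the pairs of 56 of the 235 summits, and 179 had none. CG numbers, given to genes without a name, were in 120 of 292 such pairs with an IDR summit (41.1%), close to the share over all 532 pairs. The counts for each list below are also out of pairs with a relaxed summit. In every list these were a minority of the divergent pairs in the annotation. With or without a summit there were 58 pairs for the cytosolic ribosome, 60 for the mitochondrial ribosome and 22 for translation initiation. There were 27 for the proteasome, 24 for aminoacyl-tRNA synthetases and 23 for the nuclear pore.

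Cytosolic ribosomal protein genes were in 18 pairs with a relaxed summit, and all 18 had an IDR summit, with a median signal value of 459 against 248 over the 235 summits. The highest were RpS15/CG4927 with 3472, RpS27/Nup37 with 893 and CG12929/RpL31 with 750.1. Of the 18 summits, 11 lay in gaps of at most 400 bp. Mitochondrial ribosomal protein genes had an IDR summit in 9 of 16 pairs, led by mRpS23/CenG1A with 1737, mRpL41/CG8079 with 1438 and mRpL23/CG9004 with 873. Translation initiation factor genes had one in 5 of 5 pairs, with 1995 at Ugalt/eIF2Bbeta, 820.2 at eIF4EHP/CG18428 and 181 at chic/eIF4A. eIF4EHP is a cap-binding repressor of translation. A pair counts for a list whichever of its genes is nearer to the summit. The partner was nearer at RpS15/CG4927, mRpS23/CenG1A, Ugalt/eIF2Bbeta and eIF4EHP/CG18428. The gene of the list was nearer at RpS27/Nup37, CG12929/RpL31, mRpL41/CG8079 and chic/eIF4A. At mRpL23/CG9004 the distances were 114 and 113 bp.

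Genes with symbols of RNA polymerase subunits, TBP and its associated factors and TfII factors had an IDR summit in 5 of 6 pairs. Among these symbols the highest were CG10584/Polr3E with 411, 140up/Polr2B with 205 and TfIIS/solo with 136. The TFIIH genes Ssl1 and Tfb4, described above with 1305 and 1061, were not in that list. Genes with symbols of the Sf3, Prp, snRNP, Sm and LSm families and the U2 factors, all of the spliceosome, had one in 3 of 4 pairs, with 2297 at Sf3a1/Irc, 295 at Oda/SmD3 and 225 at snRNP-U1-C/gukh. SF2/pad, with 198, was outside that list. Vesicle transport genes with Vps, Rab, Sec or Arf symbols had one in 5 of 12 pairs, with 1061 at Tfb4/Vps29, 494 at Fur1/Vps33B and 249.9 at Sec61alpha/Daxx, where Sec61alpha forms the translocation channel of the endoplasmic reticulum.

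Genes with symbols of the ND, COX, UQCR, ATPsyn and Sdh families of oxidative phosphorylation had an IDR summit in 1 of 11 pairs, Sec3/COX7B with a signal value of 192. CG42260/blw, outside the list, had 214; blw encodes the alpha subunit of ATP synthase. This pair was named after its value was seen. Symbols of aminoacyl-tRNA synthetases had an IDR summit in 0 of 3 pairs. The chromatin and insulator list had one in 2 of 3 pairs, Chro/Ssl1 with 1305 and Cp190/CG4338 with 559; Cp190 is an insulator cofactor. E(z)/Cnep1r2, with the Polycomb histone methyltransferase, had 409.9. Of the proteasome pairs 2 of 2 had one, with 236 at Rpt2/CG13599 and 173 at Rpn13/CtsL1. Mitochondrial import genes had one in 2 of 3 pairs, DNA replication genes in 2 of 2, MED symbols of the Mediator in 1 of 3 with 396 at CG4297/MED15, and the nuclear pore list in 1 of 1. The Mediator gene skd, outside the list and also named after its value was seen, had an IDR summit of 139 with Pdss2. No divergent pair of the annotation, with or without a summit, held a gene of the Hox and segmentation list. Lists of under 10 pairs say little beyond these counts.

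By chromosome, the X held 23 of the 235 summits, 4.38% of its IDR peaks (interval 2.94 to 6.49%), against 6.92% over the whole IDR list. The share was 8.51% on 2L, 7.02% on 2R, 6.56% on 3L and 7.73% on 3R. The small chromosome 4 held 0 of its 27. This allows a share of up to 11.1% when the limit for a count of 0 is set at 3 counts (95% Wilson upper limit 12.5%). That range includes the 6.92% of the whole list. The chromosomes were not compared by a test.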

How the data were processed

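Peak lists from 2 biological replicates of ChIP-seq were used: the IDR list, the relaxed list of the pooled reads and a relaxed list per replicate. The signal value of each peak is a score deposited by the authors, and the narrowPeak column of −log10 q-values was also made by the authors. The build was dm6 per the labels. Which peak caller, aligner and IDR cut-off were used is not given in the sources used here. No list holds read counts, so the depth of the libraries is unknown. The control experiment was not analysed here.

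Coding start sites came from the Ensembl BDGP6.54 annotation, release 115. Sequences came from the RefSeq Release 6 genome, on which 13944 of 13945 coding genes matched by symbol had identical positions. Summits are given counted from 1. Shares have 95% Wilson intervals, which cover counting error only. Differences were tested with two-sided Fisher's exact tests (scipy 1.17.1, python 3.11.15, pandas 2.3.3, numpy 2.4.6), adjusted by Benjamini-Hochberg over the 4 tests between summit classes and over the 11 motifs, with a threshold of 0.05. Assignment of summits, matching of replicates and motif counts were checked on simulated positions. The distances allowed, the start sites, the replicate used and the depth of the list were varied in 12 alternatives.

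The gene pairs named are those of the 20 highest summits, the narrowest and widest gaps, the neighbours of the threshold, pairs with 2 summits, up to 5 summits missing from a replicate list and up to 3 of each gene list. Pairs with a DRE or the leading 8-base word were named after their values were seen. The members and lists were chosen with earlier results of these data known.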

Additional observations from a re-analysis of the deposited data

How the results depend on the processing

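The larger IDR share in divergent gaps than at single upstream promoters and the lower GAGA share kept their direction and stayed past the threshold under every alternative run for them. For summits found among the highest peaks of both replicates, the odds ratio (main value 1.55) no longer passed with gaps up to 2000 bp (1.13), outermost start sites (1.54), the upper 1698 peaks of the IDR list (3.24, exact-test adjusted p = 0.0809), a match within 50 bp (1.28) or within 200 bp (1.40), or a single replicate (1.01 to 1.20). For the highest 25% by signal (1.55) it no longer passed with outermost start sites (1.51) and the upper 1698 peaks (1.17), and was 1.27 to 1.43 with a single replicate. The middle of the gap (1.26) passed within 150 bp of a TSS (1.57) and was 1.32 to 1.71 with a single replicate. The number of motifs that differed from single upstream promoters (2) was 4 within 100 bp of the summit, where CGATA and core promoter motif 7 joined, 1 within 150 bp of a TSS, and 1 to 3 with a single replicate, where the third with replicate 1 alone was M1BP. It was 0 against weaker summits in every alternative run. The number of IDR summits in divergent gaps (235) was 143 with gaps up to 500 bp and 351 with gaps up to 2000 bp. It was 158 with only the outermost TSS of each gene and 177 in gaps with no other coding TSS. In the upper 1698 peaks it was 155, and with a single replicate 256 to 296. Fewer peaks or narrower gaps lower it by construction. The causes of the other changes were not tested. The restriction to summits within 150 bp of a TSS, that to gaps with no other coding TSS, and all alternatives of the motif comparison with weaker summits were chosen after seeing the data. No paired analysis was possible because the study has 1 group. With 2 replicates and no read counts, neither the spread between embryo collections nor the depth behind a signal value could be given.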
